A study of Homo sapiens with 6 samples.

Results

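The human histone genes were taken from the gene annotation by symbol. The choice covered protein-coding genes named H1-, H2A, H2B, H3 or H4 under the current histone nomenclature, together with MACROH2A1 and MACROH2A2. It gave 93 genes. The rule itself used no measured value, though it was chosen with earlier results of these data known. The files held 91 of them, among 35810 genes with a matched transcript. Of the 93, 70 were replication-dependent (the clustered genes H1-1 to H1-6, H2AC, H2BC, H3C and H4C, with H3-4) and 23 were variants, which is every other gene chosen.

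The cells were DLD-1, an established human colorectal adenocarcinoma line, and all of them carried SPT5 fused to an auxin-inducible degron (SPT5-AID), a tag that lets the elongation factor SPT5 be removed by adding auxin. The labels of these libraries list no auxin. Cells received a lentiviral short hairpin RNA against ARMC5 (shARMC5), a Cullin 3 adaptor that directs the degradation of RNA polymerase II, or a nontargeting hairpin (shNT), with 3 libraries in each group. The methods list more than 1 ARMC5 hairpin and do not say which of them these libraries carried, and both groups come from the same engineered line. The question addressed here was how the mRNA of each histone gene differed between the shARMC5 and the shNT libraries, and whether the clustered genes and the variants differed alike.

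Replication-dependent histone genes encode the bulk of the proteins that package newly made DNA, and they are transcribed mainly in S phase from a few dense clusters. Their mRNAs typically have no introns and no poly(A) tail. They end instead just after a short stem-loop that is bound by SLBP and cut with the help of the U7 small nuclear RNP. Variant histone genes mostly lie outside these clusters, and many of them contain introns, give polyadenylated mRNAs and are expressed through the whole cell cycle and in resting cells, while others belong to the germline. The libraries were made from poly(A)-selected RNA, so the values below describe that fraction. A change in the amount of a clustered histone mRNA and a change in the share of it that is polyadenylated or carried through the selection cannot be told apart in these files.

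The stem-loop set the classes apart in the annotated transcripts themselves. A stem of 6 base pairs, allowing G–T pairs, that begins with GG and ends with CC around a loop of 4 bases, with T at the first and the third of them, lay within 20 bases of the annotated end in 69 of the 70 replication-dependent genes (98.6%). It did so in 1 of 23 variants (4.35%), which was H3-7, and in 9 of 19953 other protein-coding genes (0.0451%). The 16 bases of the element came in few forms, and 40 replication-dependent genes, H1-2 included, had the same form. Another 10, with H2BC12 among them, shared a second form, and 10 H4 genes shared that of H4C3. The elements of the genes on which the results turn most, and of the variant H2AX, are given here as DNA letters of the transcript strand on GRCh38, with the stem-loop in capitals and up to 5 bases on either side.

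H1-2, chr6:26055740-26055764, minus strand: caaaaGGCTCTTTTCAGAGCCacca
H2BC12, chr6:27146361-27146386, minus strand: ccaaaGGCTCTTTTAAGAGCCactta
H2AC6, chr6:26124664-26124689, plus strand: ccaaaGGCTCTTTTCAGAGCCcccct
H2BC5, chr6:26158582-26158607, plus strand: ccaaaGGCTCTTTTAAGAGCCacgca
H4C3, chr6:26104312-26104337, plus strand: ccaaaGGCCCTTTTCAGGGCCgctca
H2AX, chr11:119094893-119094918, minus strand: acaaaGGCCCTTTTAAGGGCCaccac

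H1-2 and H2AC6 have the same stem-loop letters, as do H2BC12 and H2BC5. At most 6 bases followed the element in the annotated transcripts read for the first 5 genes, whereas 821 bases followed it in that of H2AX. H2AX is the variant that is phosphorylated beside DNA breaks, and its annotated transcripts run past the stem-loop to a poly(A) signal.

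The genes H3C15 and H2BN1 had no matching transcript identifier and were not analysed here. Of the 91, 17 were listed at 0 reads in all 6 libraries (11 replication-dependent, 6 variant). Another 30 had some reads but fell under the minimum of 10 reads in 3 libraries. These were 23 replication-dependent genes with at most 22 reads in any library, H2BC7 reaching the highest, and 7 variants with at most 7.02. The variants at 0 were H1-7, H1-8, H2AP, H2AL3, H2BW1 and H2AB3, most of them genes of the germline. H2AJ, an H2A variant known from epithelial and senescent cells, had at most 1 read in a library. That left 44 tested genes, 35 replication-dependent and 9 variant. Between 26201112 and 40866478 reads were assigned per library. Between libraries of a group the biological coefficient of variation, as edgeR estimates it over all genes, was 0.0643. The study's methods count the 3 libraries of a group as biological replicates. Neither they nor the labels say whether these came from separate cultures or infections, so the P values measure the spread between these libraries.

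The targeted gene followed its labels. ARMC5 stood at 10.8, 11.97 and 12.9 counts per 1000000 assigned reads (CPM) in the shARMC5 libraries and at 23.0, 25.9 and 26.7 in the shNT libraries, a log2 fold change of -1.09 (SE 0.080, edgeR's quasi-likelihood test, adjusted P = 5.32e-07). Of 10 colon epithelial markers, 7 were abundant enough to be tested, and EPCAM lay between 982 and 1051 TPM, transcripts per 1000000. CDX1 was listed at 0 and CEACAM5 was under 0.357 TPM, and 2 of the 7 rose and 2 fell by edgeR's test, 57.1% called against 7.75% of all genes tested. KRT18 rose by 0.25 and KRT8 by 0.18 on the log2 scale, VIL1 fell by 1.30 and ELF3 by 0.19. The 10 markers of blood, stromal, endothelial and liver cells summed to 0.710 to 1.20 TPM in shARMC5 and 1.11 to 1.53 TPM in shNT, and CD3E and COL3A1 were among those at 0.

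By level, the variants made up most of the histone mRNA in these libraries. TPM is per length and is the scale on which levels of different genes are compared. H2AZ1, an H2A variant found around transcription start sites, was first at 1459 ± 46.0 TPM (SD, n = 3) in shARMC5 and 1432 ± 18.8 in shNT. H3-3A and H3-3B, which both encode the replication-independent H3.3, followed at 747 ± 23.5 and 720 ± 15.1 TPM in shNT, and their ranges overlapped. MACROH2A1, whose protein carries a large macro domain, stood at 439.8 ± 21.9 TPM in shNT. H2AX at 281 ± 13.0 and H2AZ2 at 269 ± 4.05 TPM overlapped each other. The linker histone variant H1-10 came next at 177 ± 11.5 TPM, and MACROH2A2 was lowest of those tested at 17.9 ± 0.732. Among the 8 neighbouring pairs in this order, 2 overlapped between the shNT libraries and 6 were separate.

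Most replication-dependent genes were low, and H2BC12 was the highest of them. It encodes a canonical H2B and stood at 148 ± 12.9 TPM in shNT, below H1-10. H1-2, a linker histone gene of the chromosome 6 cluster, followed at 43.7 ± 5.29 TPM. H4C3, which encodes H4, had 32.3 ± 1.46 and H2BC5, which encodes H2B, 20.8 ± 1.44. Below H2BC5 the order was mostly not resolved. Of 34 neighbouring pairs of replication-dependent genes, 29 overlapped between the shNT libraries and 5 were separate, and 3 of these 5 were the steps from H2BC12 to H2BC5.

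**Figure D1:**
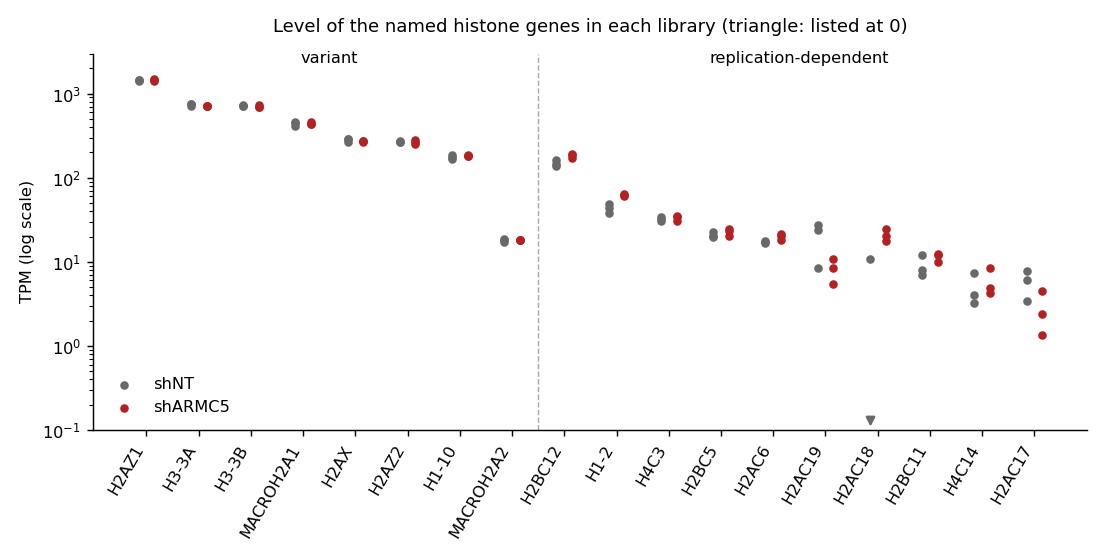
TPM on a log axis of 18 histone genes named by the fixed rule, with each point a library, shNT in grey and shARMC5 in red, and triangles for a gene listed at 0. The variants span 17.9 to 1432 TPM in the shNT means, the replication-dependent genes lie mostly lower, and the points of H2AC18, H2AC19, H4C14 and H2AC17 scatter far more than those of the abundant genes.

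Summed over each class, the replication-dependent mRNAs were higher in shARMC5 and the variant mRNAs were not separated. The 69 replication-dependent genes in the files summed to 479, 436.0 and 439 TPM in the shARMC5 libraries and to 410.4, 361 and 384 TPM in the shNT libraries. All 3 shARMC5 sums lay above all 3 shNT sums, and the ratio of the means was 1.17. The 22 variants summed to 4156 ± 91.0 TPM in shARMC5 and 4177 ± 106 TPM in shNT, a ratio of 0.995, and the groups overlapped. The clustered genes thus held 9.80 ± 0.616% of the histone TPM in shARMC5 and 8.44 ± 0.520% in shNT. No test was made on these sums.

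H1-2 and H2BC12 are set apart here because they were called higher gene by gene, so the sum of the rest had to differ less, and the split is a description only. These genes together summed to 246 ± 8.68 TPM in shARMC5 and 192 ± 11.5 in shNT, a ratio of 1.28, and made up 48.4% to 56.4% of the class TPM in each library. In reads their share of the class was 31.2% to 37.7%. The other 67 replication-dependent genes summed to 205 ± 17.5 and 193 ± 15.1 TPM, a ratio of 1.06, with overlapping groups. By family, the replication-dependent H1 genes had a ratio of 1.39 between the groups, and their 3 shARMC5 sums of 62.9 to 68.2 TPM lay above the shNT sums of 42.7 to 51.9. The H2B genes had a ratio of 1.20, with 222 to 252 TPM against 183 to 213, again without overlap. Without H2BC12 the other 17 H2B genes summed to 53.7 ± 5.65 TPM in shARMC5 and 49.9 ± 2.67 in shNT, a ratio of 1.08 with overlapping groups. The H2A, H3 and H4 genes had ratios of 1.06, 1.05 and 1.07, and in each of these families the groups overlapped.

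**Figure D2:**
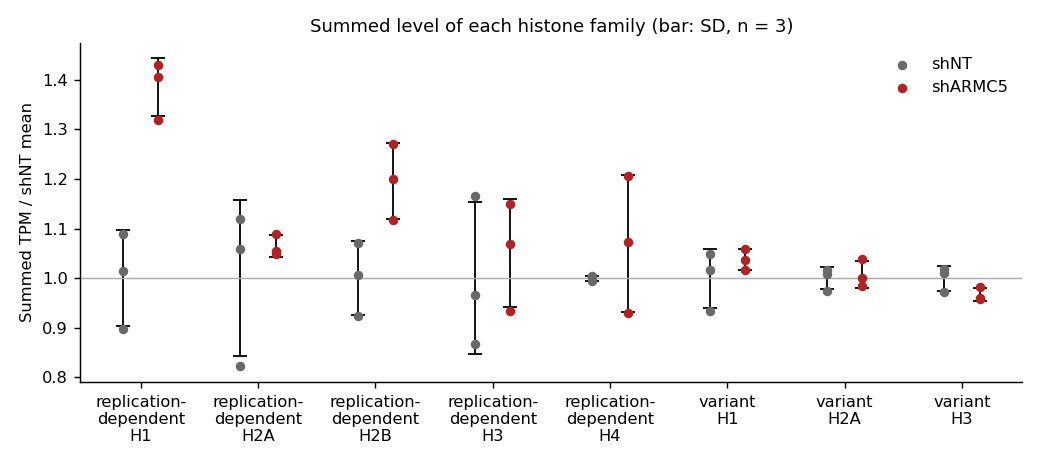
Summed TPM of each histone family in each library, divided by its shNT mean, with grey points for shNT, red points for shARMC5 and bars for the SD of 3 libraries. The replication-dependent H1 and H2B sums are separated between the groups, with ratios of 1.39 and 1.20, and those of the other families shown overlap. H1-2 held most of the H1 sum and H2BC12 most of the H2B sum.

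Gene by gene, 2 of the 44 tested histone genes passed the test, H1-2 and H2BC12, and both rose. No histone gene was called lower. Calls here are edgeR quasi-likelihood tests with a Benjamini-Hochberg adjusted P under 0.1 over all genes tested. Over all 13737 genes tested 7.75% were called, 4.44% higher and 3.3% lower, and 2 of 44 is close to the share called higher over all genes. The 35 replication-dependent genes had a median log2 fold change of 0.14, with 21 above 0 and 14 below, and the 9 variants had a median of 0.02. The median over all genes tested was -0.0014. In 10 histone genes every shARMC5 library lay above every shNT library, 9 of them replication-dependent, and in 1 variant every shARMC5 library lay below. Over all genes 12.5% lay higher without overlap, against 22.7% of the 44 histone genes and 25.7% of the 35 replication-dependent ones. The histone genes counted here include H2AC18 and H3C14, whose reads may belong to near-identical copies, as described below. In either direction 23.4% of all genes had groups that did not overlap, against 25% of the histone genes.

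H1-2 encodes histone H1.2, a linker histone that binds where DNA enters and leaves the nucleosome. The gene (ENSG00000187837) lies at chr6:26055740-26056470 on the minus strand in the chromosome 6 cluster. It stood at 22.3, 23.2 and 22.6 CPM in the shARMC5 libraries and at 14.8, 17.6 and 13.99 CPM in the shNT libraries. The groups did not overlap, and the shARMC5 libraries were close to each other while the second shNT library was the highest of its group. The log2 fold change was 0.55 (SE 0.079, 95% interval 0.39 to 0.72), a fold of 1.47, with an edgeR adjusted P of 4.67e-04. The reads behind these values were 570.0 to 915 per library in shARMC5 and 392 to 570.1 in shNT. Leaving out each library in turn gave log2 fold changes of 0.49 to 0.66, and H1-2 was called each time.

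H2BC12 (ENSG00000197903) lies at chr6:27146361-27146855 on the minus strand, also in the chromosome 6 cluster. It stood at 31.4, 28.0 and 31.2 CPM in shARMC5 and at 25.2, 22.1 and 24.5 CPM in shNT. The lowest shARMC5 library was above the highest shNT library, and in each group the second library was the lowest. The log2 fold change was 0.34 (SE 0.068, 95% interval 0.19 to 0.48), a fold of 1.26, with an edgeR adjusted P of 0.0073. With an offset for the transcript length in edgeR the log2 fold change was 0.32 and the adjusted P 0.144, so the call was lost there.

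H2AC6, which encodes H2A and was among the more abundant clustered genes, did not pass the test. It stood at 18.4, 17.2 and 20.1 CPM in shARMC5 and at 16.03, 15.4 and 16.4 CPM in shNT. Its groups did not overlap, with a log2 fold change of 0.21 (SE 0.074) and an edgeR adjusted P of 0.117. H2BC5 had 9.54, 8.57 and 9.32 CPM in shARMC5 against 8.14, 7.12 and 7.96 in shNT, and here too the groups were separate. Its log2 fold change was 0.24 (SE 0.103) and its edgeR adjusted P 0.232. H2BC11, a further H2B gene, had separate groups, 3.27, 3.98 and 3.45 CPM against 2.60, 2.78 and 3.07, with a log2 fold change of 0.35 (SE 0.169) and an edgeR adjusted P of 0.296.

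H4C3, the H4 gene with the highest level, had 7.26, 6.998 and 6.54 CPM in shARMC5 and 6.36, 6.94 and 6.53 in shNT. The groups overlapped, the log2 fold change was 0.07 and its 95% interval ran from -0.17 to 0.31. H2AC17, a low H2A gene of the same cluster, showed the opposite sign with 0.759, 0.406 and 0.238 CPM against 1.22, 0.555 and 1.03. Its groups overlapped, its log2 fold change of -0.98 (SE 0.435) had an edgeR adjusted P of 0.243, and it rested on 5.74 to 39.9 reads a library. At this depth its 95% interval ran from -1.91 to -0.06. The 25 tested replication-dependent genes that the naming rule did not reach stood at 0.481 to 7.71 TPM. Their log2 fold changes ran from -0.59 (H2BC13) to 0.85 (H3C14), 13 above 0 and 12 below, with standard errors of 0.16 to 1.26, and none was called by edgeR. Unadjusted P values were under 0.05 in 6 replication-dependent genes. These were H1-2, H2BC12, H2AC6, H2BC5 and H3C14 with positive values and H2AC17 with a negative one. The share of all genes tested under this cut-off is not given here, so this and the later counts at it are descriptions only.

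**Figure D3:**
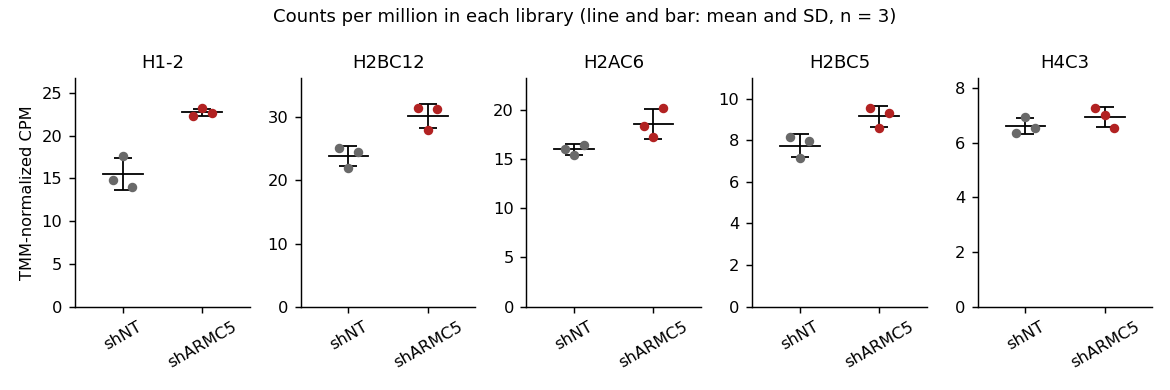
TMM-normalized CPM of 5 replication-dependent genes in each library, starting at 0, with points for libraries and a line and bar for the mean and SD of 3. H1-2 separates most, with a mean of 22.7 in shARMC5 against 15.5 in shNT, and H4C3 overlaps between the groups.

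None of the 9 tested variants was called by edgeR, and DESeq2 also called 0. At an unadjusted P under 0.05 there was 1. H3-3A was the variant in which every shARMC5 library lay below every shNT library, at 412, 416 and 424.9 CPM in shARMC5 and 425.2, 440.1 and 427 in shNT. Its log2 fold change was -0.05 (SE 0.026) and its edgeR adjusted P 0.380. H3-3B, its partner gene for the same protein, had -0.02 with an interval of -0.09 to 0.04.

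The intervals of the other variants described were narrow and included 0. H1-10, a linker histone variant, had a log2 fold change of 0.07 with a 95% interval of -0.03 to 0.16. Without the second shNT library it was 0.12 and called (edgeR adjusted P = 0.0405), and without the third shNT library 0.03. H2AZ1 had 0.05 with an interval of -0.01 to 0.12. H2AX had -0.04 (-0.10 to 0.02) and MACROH2A1 0.02 (-0.04 to 0.07). H2AZ2 had 0.01 (-0.06 to 0.07), and its sign turned to -0.01 when libraries were scaled by their total reads only. MACROH2A2 had 0.05 (-0.08 to 0.17), the widest interval of these, at the lowest level. H1-10, H2AZ2 and H2AX had 3962 reads or more in every library, and MACROH2A2 had 603 to 926. The values of the 8 variants described lay between -0.05 and 0.07.

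**Figure D4:**
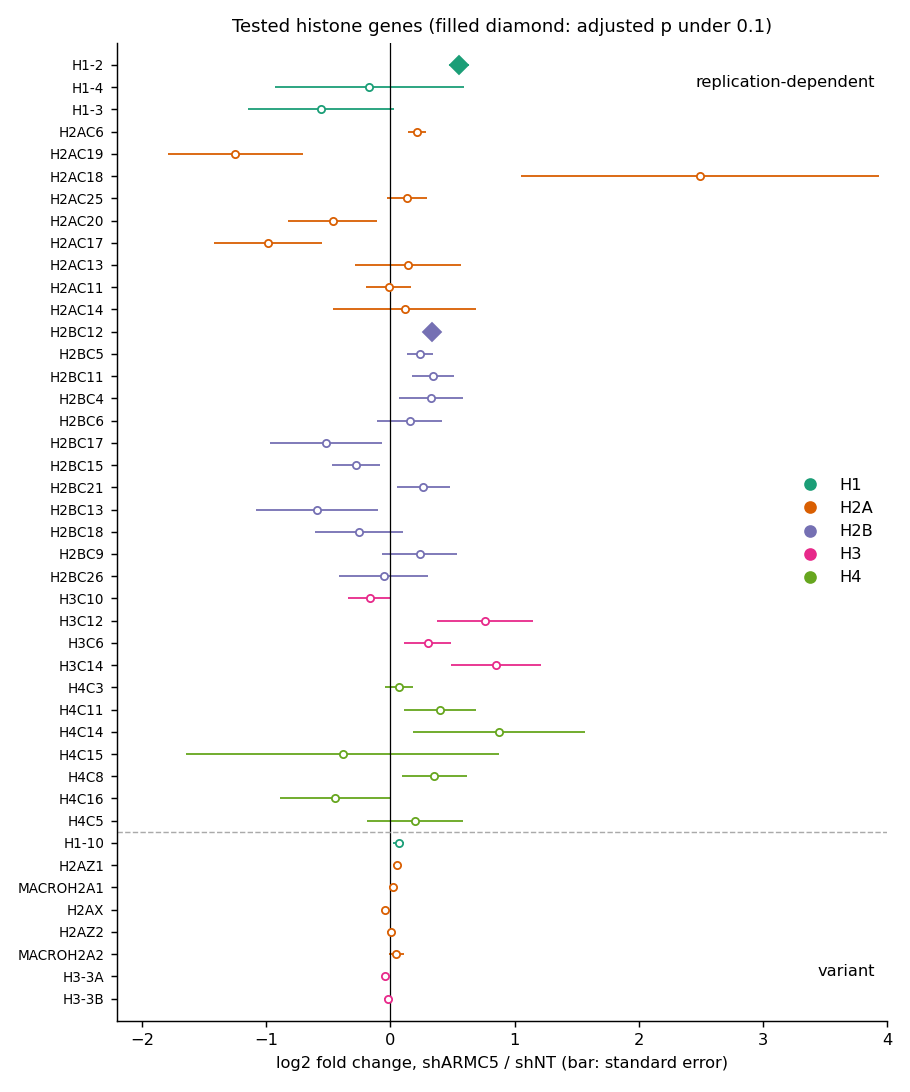
Log2 fold change of shARMC5 over shNT with its standard error for 43 of the 44 tested histone genes, replication-dependent genes above the dashed line and variants below it, coloured by family, with filled diamonds where the edgeR adjusted P was under 0.1. H1-2 at 0.55 and H2BC12 at 0.34 are the filled points, and the 8 variants shown lie between -0.05 and 0.07 while the low clustered genes range from -1.25 to 2.49 with wide bars.

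The clustered genes differed in how precisely they were measured. In the chromosome 6 cluster 55 genes were chosen and 24 tested, with a median log2 fold change of 0.18, and H1-2 and H2BC12 both lie there. In the cluster on chromosome 1 nearer to the centromere 8 of 11 genes were tested, with a median of 0.01 and no call by edgeR. The smaller cluster further along chromosome 1 had 2 of 3 genes tested, H2AC25 and H2BC26, with values on either side of 0. H4C16 on chromosome 12 was the only replication-dependent gene outside these clusters. By family, 3 of 6 H1 genes were tested, 9 of 17 H2A genes, 12 of 18 H2B genes, 4 of 14 H3 genes and 7 of 15 H4 genes. The medians were -0.17, 0.11, 0.20, 0.53 and 0.20, and H1-2 was the only tested H1 gene of the class above 0.

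Near-identical gene copies exchanged reads from library to library. H2AC18 and H2AC19 encode the same H2A protein on opposite strands of chromosome 1, and their annotated transcripts differ by 1 base, at 99.8% identity. H2AC18 was given 169, 190.3 and 170.3 reads in shARMC5 and 0, 96.0 and 0 in shNT. H2AC19 was given 73.0, 119 and 39.3 reads in shARMC5 and 245, 77.7 and 195 in shNT. In the shNT libraries where H2AC18 was at 0, H2AC19 held all the reads of the pair. The fitted log2 fold changes of 2.49 (edgeR adjusted P = 0.470) and -1.25 (edgeR adjusted P = 0.340) therefore cannot be read gene by gene. Summed, the pair had 7.99, 7.84 and 8.29 CPM in shARMC5 and 7.49, 5.37 and 6.96 in shNT. The groups did not overlap, with a log2 fold change of 0.28 (SE 0.127) and an edgeR adjusted P of 0.252.

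H4C14 and H4C15 gave the same picture with H4. Their annotated transcripts of 396 bases are identical. H4C14 was given 54.1, 232 and 44.9 reads in shARMC5 and 83.8, 32.5 and 47.5 in shNT, while H4C15 was given 141, 0 and 124 against 107, 133.5 and 133.5. The second shARMC5 library thus put every read of the pair on H4C14. The summed pair had a log2 fold change of 0.13 (SE 0.128) with an edgeR adjusted P of 0.670, and its groups overlapped. H3C14 is a further case, since its transcript is 99.2% identical to that of H3C15, which was not in the files. Its value of 0.85 (SE 0.366, edgeR adjusted P = 0.228) may hold reads of either gene.

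**Figure D5:**
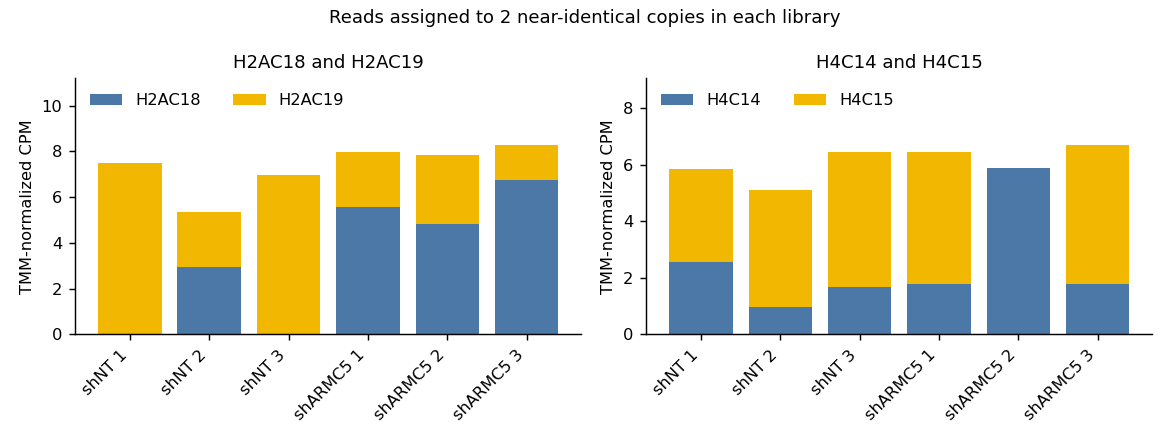
Stacked TMM-normalized CPM of the copies H2AC18 and H2AC19 and of H4C14 and H4C15 in each library. The split between the copies moves from library to library while the stacked height stays between 5.37 and 8.29 for the H2A pair and between 5.12 and 6.70 for the H4 pair.

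The transcript models behind the values differed in length from the annotation used here, which bears most on the short clustered genes. Of 95 replication-dependent transcripts in the files, 27 had the same version and length as in GENCODE 44 and 31 held only coding bases. H1-2 was quantified on 642 bases against 731 in the annotation, and H2BC12 on 381 against 495, so the stem-loops shown above lay outside the models on which both were counted. Between 36.9% and 41.5% of the replication-dependent reads of a library fell on such coding-only models. Models of another length that were not coding-only took 24.4% to 40.3%. Of the models with their annotated length, those that ran past the stem-loop took 9.70% to 21.8%, and those with no stem-loop took 11.7% to 13.5%. No replication-dependent model of annotated length ended at the stem-loop.

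Model length also sets the level in TPM. H2BC12 had a mean of 845 reads per library and H2AC6 537.5, a ratio of 1.57. In TPM the same genes stood at 166 and 18.5, a ratio of 8.95. The mean effective length was 229 bases for the model of H2BC12 and 1153 to 1351 for the models of H2AC6, which run into a long 3′ exon. The comparison of a gene between the groups uses reads and is not moved by a length that is the same in every library.

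Polyadenylated forms were present among the annotated transcripts of some clustered genes. H2BC5 has a stem-loop transcript of 486 annotated bases and a spliced one of 789 bases, which has a poly(A) signal in its last 50 bases and no stem-loop. The longer form was given 230, 315 and 192 reads in shARMC5 and 207, 158 and 185 in shNT. The model of the stem-loop form did not have its annotated length. It was given 58.8, 23.5 and 42.9 against 58.5, 73.3 and 37.7, so the model of the longer form was assigned most reads in all 6 libraries. With a model of another length, the split of the RNA between these forms cannot be told from these reads. For H2AC6, reads moved between overlapping models of 1654 and 1668 bases, and either of them was at 0 in some library of shARMC5. Tested as single transcripts, 91 of 178 histone transcripts passed the filter and edgeR called 0 of them, with 3 at an unadjusted P under 0.05. Over all 49809 transcripts tested only 0.00803% were called. The transcript of H1-2 had a log2 fold change of 0.56 (SE 0.108) and that of H2BC12 0.34 (SE 0.076), with edgeR adjusted P values of 0.352 and 0.449.

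Clustered H2A and H2B genes often share a promoter region and are transcribed away from each other. Measured between the 5′ ends of their stem-loop transcripts, there were 13 such pairs with under 1000 bases between them, 12 of them an H2A with an H2B, and in 6 pairs both genes were tested. H2BC12 and H2AC12 are 250 bases apart, and stood at 166 and 1.902 TPM, and H2AC12 with 4 to 20 reads per library was below the filter. H2BC4 and H2AC6 are 245 bases apart and stood at 4.17 and 18.5 TPM. H2BC11 and H2AC11 are 247 bases apart and stood at 10.3 and 2.18 TPM. H2AC25 and H2BC26 stood at 7.03 and 0.481 TPM, with the H2A gene higher. In the 6 pairs with both genes tested, the log2 fold changes had the same sign in 2, which were H2BC4 with H2AC6 and H2AC17 with H2BC17, and opposite signs in 4. Among the opposite pairs, H2AC11 at -0.01 (SE 0.18) and H2BC26 at -0.05 (SE 0.359) had values smaller than their SE. No gene of the 6 pairs was called by edgeR, so the count of signs is a description only.

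The sequences before H1-2 and H2BC12 differed in the elements they held. Promoter windows of 300 bases (250 before and 50 after the start, RefSeq, GRCh38.p14) were read for each gene at the start nearest the 5′ end of its stem-loop transcript, or of the gene where it has none, and searched on both strands for the octamer ATTTGCAT, for CCAAT and for TATAAA, with overlaps allowed. The octamer, which OCT1 is known to bind in H2B promoters, was found in 38.5% of 65 replication-dependent promoters and in 1.8% of all 35116 promoters. It lay in 14 of 18 H2B promoters and 11 of 16 H2A promoters and in none of the 6 H1, 12 H3 or 13 H4 promoters. Windows of a divergent pair overlap, so a match between the genes can count for both. CCAAT was found in 84.6% of replication-dependent, 90% of variant and 34.6% of all promoters, and TATAAA in 66.2%, 30% and 11.5%. The 250 bases before each of the called genes are shown in the direction of transcription with these letters in capitals on either strand, where touching matches run together.

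H1-2, chr6:26056471-26056720, minus strand: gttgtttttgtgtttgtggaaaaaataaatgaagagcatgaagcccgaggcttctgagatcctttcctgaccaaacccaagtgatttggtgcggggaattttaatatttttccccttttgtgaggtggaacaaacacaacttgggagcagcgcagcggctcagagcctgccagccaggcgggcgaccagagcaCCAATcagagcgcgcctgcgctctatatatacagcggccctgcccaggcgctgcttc
H2BC12, chr6:27146856-27147105, minus strand: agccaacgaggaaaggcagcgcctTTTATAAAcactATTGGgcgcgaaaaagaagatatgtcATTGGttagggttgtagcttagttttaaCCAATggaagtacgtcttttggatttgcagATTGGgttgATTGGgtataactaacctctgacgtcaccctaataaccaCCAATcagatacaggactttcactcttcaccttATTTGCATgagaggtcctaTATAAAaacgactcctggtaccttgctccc

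H2BC12 had 1 octamer and 6 CCAAT matches in this stretch, and TATAAA in 3 places counting both strands. H1-2 had 1 CCAAT match, and neither the octamer nor TATAAA is in these letters. A match is a description of the letters only, and the called genes shared CCAAT but not the octamer.

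Genes that make, process or load histone mRNA and protein were read from lists beside the histone genes. Of 35 genes for histone gene transcription and 3′ processing, none was called by edgeR, 3 had an unadjusted P under 0.05, and the median log2 fold change was 0.02. SLBP, which binds the stem-loop, had 0.05 (edgeR adjusted P = 0.484), and NPAT, the coactivator of clustered histone genes, had 0.02 (edgeR adjusted P = 0.902). Of 34 histone chaperones and exchange factors, 2 rose and none fell by edgeR's test, near the 4.44% called higher over all genes, with a median of 0.01. These were the importin gene IPO4 at 0.11 (edgeR adjusted P = 0.0565) and NPM1, a nucleolar chaperone, at 0.10 (edgeR adjusted P = 0.0592). Neither was called with unmatched transcripts kept or with a length offset in edgeR.

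Of 26 S phase genes 3 rose and none fell by edgeR's test, against 4.44% called higher over all genes. Positive values were found in 25 of the 26, with a median of 0.05, against 6795 of all 13737 genes tested. No test was made on this list as a set. With unmatched transcripts kept or a length offset in edgeR none of the 3 was called. CDC6, which loads the replicative helicase, had a log2 fold change of 0.13 (edgeR adjusted P = 0.0214). RRM2, a ribonucleotide reductase subunit, had 0.11 (edgeR adjusted P = 0.0306) and TK1, a thymidine kinase, 0.12 (edgeR adjusted P = 0.0267). The list summed to 3878 to 3994 TPM in shARMC5 and 3731 to 3942 in shNT, and the groups overlapped. None of the list was at 0. The part of S phase content in the values of H1-2 and H2BC12 was not tested, and in bulk RNA more cells in S phase and more histone mRNA in each cell cannot be told apart.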

How the data were processed

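Poly(A) RNA of 6 libraries was read (3 shARMC5, 3 shNT). Per the labels, cutadapt 4.2 trimmed the reads, and the authors ran Salmon 1.9.0 with its GC correction. The deposited files hold estimated counts, TPM, lengths and effective lengths per transcript, and the labels name hg38. The transcript set is not given in the sources used here. Identifiers were matched without version to GENCODE 44, and 11923 of 177456 transcripts (2.96% to 3.04% of reads) had no match and were left out. Estimated counts were summed per gene, rounded and fitted with edgeR 4.0.16 (R 4.3.3, TMM, robust quasi-likelihood F test, group as the only term) where a gene reached 10 counts in 3 libraries or more. Benjamini-Hochberg adjusted P under 0.1 was called. CPM is TMM-normalized. The filter and threshold follow the study, which used DESeq2 after summarization with tximeta. DESeq2 1.42.0, with and without length offsets, was tried here as an alternative. Other steps used Python 3.11.15 with pandas 2.3.3 and numpy 2.4.6. Tested on simulated data in which 200 of 13737 genes had a log2 change of 1, edgeR recovered 93.5% with 6.5% of calls false. The simulation gave all genes the same dispersion. Changes as small as those of H1-2 and H2BC12 were not simulated, so the recovery does not apply to them.

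The histone genes and lists were chosen with earlier results of these data known. Named genes are ARMC5, called histone genes, the 8 most abundant and 4 largest changes of each class, the tested variants, and up to 5 called genes each way of a list. SLBP, NPAT, EPCAM, CDX1, CEACAM5, H3C14, H4C15 and the genes of the copies and shared promoters were named after their values were seen. SE is the log2 fold change divided by the root of F, and intervals are 95% on the same fit. Counting error limits genes of few reads, and libraries of a group differed by more than it, with a chi-square of 5.23 to 20.97 per gene. Some genes are counted in the totals and are not reported here by name.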

Additional observations from a re-analysis of the deposited data

How the results depend on the processing

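H1-2 was called under every alternative run, with log2 fold changes of 0.49 to 0.66. H2BC12 was called under all but the length offset in edgeR. Of 359 alternative values for 24 named genes, 318 kept direction and side of the threshold, and the cause of the others was not tested. Called histone genes, 2 here, numbered 1 with the length offset in edgeR, 4 with a replicate block and 2 to 6 with a library left out. Replication-dependent calls, 2 here, numbered 1 with that offset and 2 to 4 with a library left out. Variant calls, 0 here, numbered 1 with the replicate block and 0 to 2 with a library left out. The highest numbers came without the second shNT library, where H1-10 (adjusted P = 0.0405) was among those called by edgeR, as were H2AC18 and H2AC19, whose reads move between copies. DESeq2 with length offset called 3 histone genes, H2AC19 among them, and a filter of at least 1 count called 3, with H2AC6 at an edgeR adjusted P of 0.0873. Calls in the lists of 95 genes, 5 here, numbered 1 with the length offset in edgeR, 3 with DESeq2 and length offset, 9 with at least 1 count, 0 with unmatched transcripts kept, 14 with the replicate block and 1 to 9 with a library left out. CDC6, RRM2, TK1, IPO4 and NPM1 each lost their call under several of these. Over all genes 235 were called with the edgeR length offset and 532 with unmatched transcripts kept, against 1064. H2AZ2 turned to -0.0078 with total reads as the scale and ranged from -0.0285 to 0.0272 with a library left out, and H3-3B from -0.0425 to 0.0049. The median of the replication-dependent genes ranged from 0.09 to 0.24 and stayed above that of all genes. Copies summed is an alternative chosen after seeing the data, and it called the same 2 histone genes.

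Replicate numbers are shared by the groups, but same-numbered libraries deviated together with correlations of 0.042, 0.108 and 0.140, which do not all exceed 0.1, so they were not treated as pairs. Each library correlated best with its own number, a hint from the data only. With the replicate block 1766 genes were called against 1064, and of the histone genes H2AC6 (edgeR adjusted P = 0.0578) was among those that joined H1-2 and H2BC12.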
